A study of Rattus norvegicus and Mus musculus with 18 samples.

Results

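The 28 genes described here code for enzymes of cholesterol synthesis, for the sensors and transcription factors that control it, and for proteins that move cholesterol out of cells. They were chosen by gene symbol from the pathway, by a rule that uses no measured value though earlier results of these data were known, and all 28 were found among the 49548 genes of the mouse table and passed the filter that left 15982 genes for testing. Their RNA was measured by SMART-seq2, which amplifies full-length cDNA, in whole tissue of adult mice taken 1 day after the scab detached from a skin wound. The groups were wound epidermis (n = 3 libraries) and wound dermis (n = 3 libraries). Both groups were wounded, and no unwounded mouse skin was among the samples. The sources used here do not give strain, sex, genotype or exact age, nor whether the libraries came from separate animals. The p-values therefore measure the spread between these libraries, which may be technical. The rat samples of the series (12 libraries) were not analysed here, since their gene identifiers were not paired with symbols.

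Cholesterol is built from acetyl-CoA in 3 stretches: mevalonate is made and phosphorylated, it is turned into isoprenoids such as farnesyl diphosphate, and squalene is then folded and trimmed into sterols. The transcription factors SREBP-1 and SREBP-2 switch these genes on. When sterols are plentiful, SCAP and the INSIG proteins hold SREBP in the endoplasmic reticulum, and when sterols are scarce SCAP carries it to the Golgi, where proteases release its active part. The liver X receptor LXR-alpha, encoded by Nr1h3, senses oxysterols and turns on genes of cholesterol export such as Abca1. In the epidermis, cholesterol joins ceramides and fatty acids in the lipid sheets that seal the outer layer of the skin.

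Levels are in TPM, transcripts per unit of all transcripts in a library after correction for length, so they can be set side by side between genes. Each library summed to the same total, and the number of reads behind each is unknown. Differences are epidermis minus dermis on the log2(TPM + 1) scale from limma, with p-values adjusted by the Benjamini-Hochberg method over all 15982 genes and a threshold of 0.05. A pseudocount of 1 understates the change of genes near 1 TPM. Tissue markers matched the labels. All 12 markers of differentiating keratinocytes and 6 of 8 of basal keratinocytes were higher in epidermis, and all 9 fibroblast and 7 endothelial markers were lower. Wound dermis replicate 2 stood apart. Its 12 differentiation markers summed to 13490 TPM, against 960 and 363 TPM in dermis replicates 1 and 3 and 36940 to 77450 TPM in epidermis. The count of genes called is therefore also given without this library.

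Most genes of cholesterol synthesis were higher in wound epidermis than in wound dermis. Of the 28 genes, 21 were higher, 3 were lower and 4 did not pass the threshold. Over all genes tested 56.3% passed the threshold, 17.0% as higher and 39.3% as lower. Every epidermis library lay above every dermis library for 23 of the 28 genes and below for 3, where 20.8% and 45.3% of all genes did so. The median difference was 1.82 over the 28 genes and -0.42 over all genes. Without wound dermis replicate 2 the counts were again 21 and 3, and the median was 2.08. Scaling moved the reference point: the median of all genes was -0.03 with median-of-ratios scaling and 0.08 with quantile normalization, so a difference of 0 on the TPM scale lies 0.42 above the typical gene. Of all calls, 30.2% were higher on the TPM scale, 47.2% with median-of-ratios scaling and 52.8% with quantile normalization. Under those scalings 24 and 23 of the 28 genes were higher and 2 were lower in each, where 27.2% and 29.4% of all genes were higher and 30.3% and 26.2% lower.

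**Figure D1:**
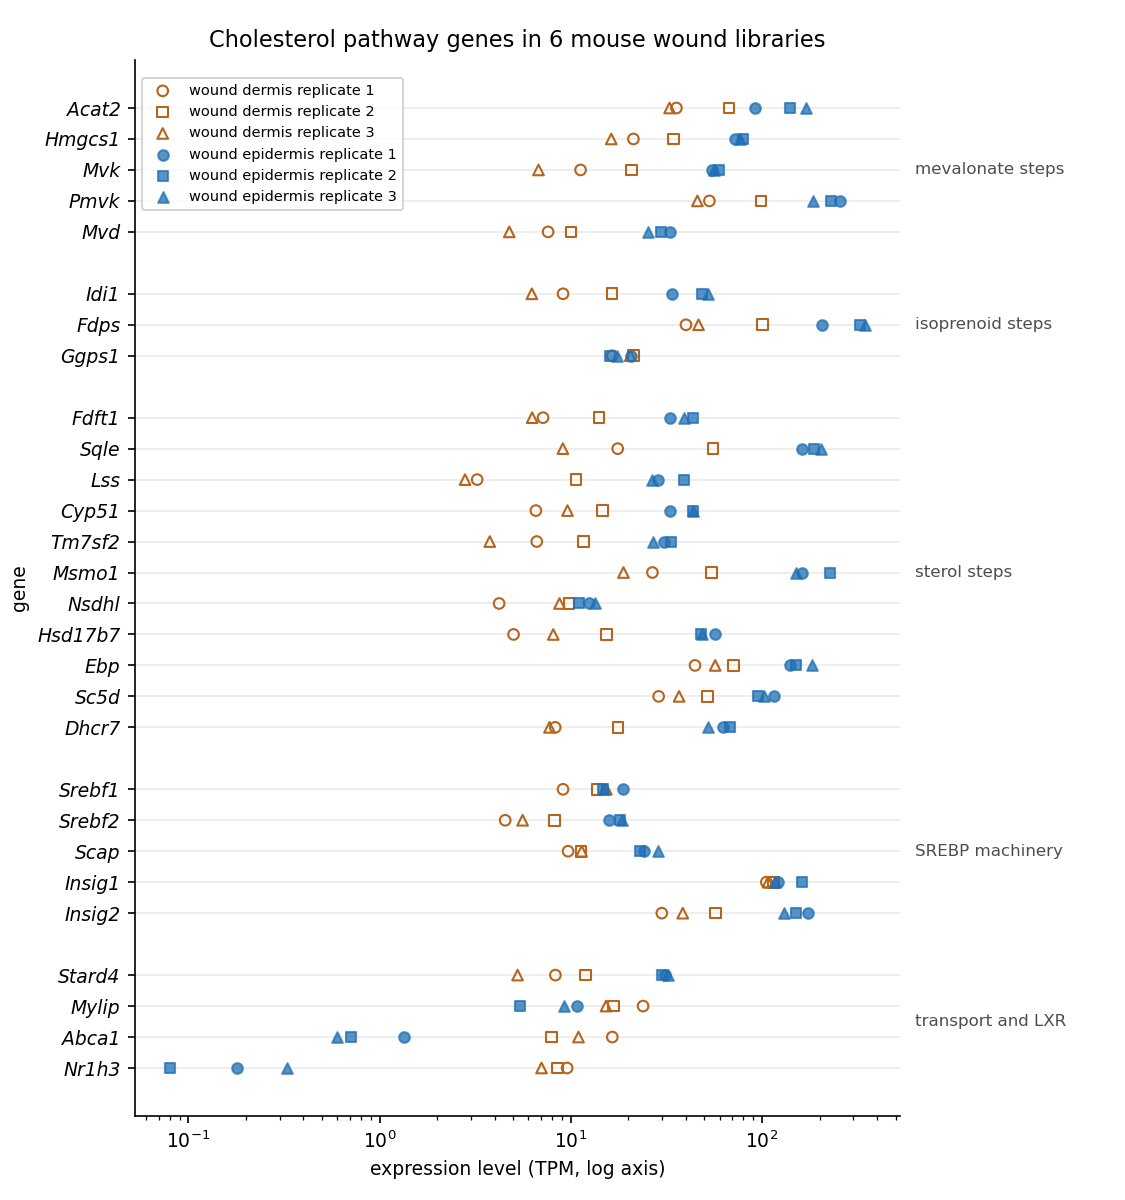
Level of each of the 28 genes in TPM (log axis) in the 3 wound dermis libraries (open symbols) and 3 wound epidermis libraries (filled symbols), ordered by role. In 23 genes every epidermis library lay above every dermis library, in 3 every one lay below, and dermis replicate 2 (open squares) was the highest dermis library for 23 of 28 genes.

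Of 19 enzymes, 17 were higher in epidermis, 0 were lower, and Ggps1 and Nsdhl did not pass the threshold. Their levels summed to 353, 697 and 349 TPM in wound dermis replicates 1, 2 and 3 and to 1605, 1879 and 1820 TPM in wound epidermis. The groups did not overlap, and the ratio of the mean sums was 3.79. Dermis replicate 2 was the highest of the dermis libraries and still reached less than the lowest epidermis library. In bulk tissue, fewer cells of a type and less RNA per cell cannot be told apart, so these levels describe the tissue and not a cell.

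All 5 genes of the mevalonate steps were higher in epidermis. Hmgcs1, the synthase that makes HMG-CoA, stood at 21.3, 34.5 and 16.3 TPM in dermis and at 72.6, 79.4 and 77.05 TPM in epidermis. The epidermis libraries lay close together and all above the dermis, with a difference of 1.69 ± 0.28 (SE, limma adjusted p = 0.0022). Acat2, the thiolase that joins acetyl-CoA units, stood at 35.7, 67.1 and 32.9 TPM in dermis and at 91.4, 140.1 and 169.7 TPM in epidermis. Its groups did not overlap either, though epidermis replicate 1 came near dermis replicate 2 (difference 1.57 ± 0.35, SE, limma adjusted p = 0.0074). Mvk, the mevalonate kinase, had the largest difference of the 5, from 11.3, 20.7 and 6.78 TPM in dermis to 54.5, 59.4 and 56.4 TPM in epidermis (2.18 ± 0.36, SE, limma adjusted p = 0.0022). Pmvk, which adds the next phosphate, was the most abundant of them, at 65.9 ± 28.7 TPM in dermis against 224 ± 35.9 TPM in epidermis (SD, n = 3 each). Mvd, which makes isopentenyl diphosphate, was 3.92 times higher in epidermis by mean TPM and the least abundant of the 5 in both tissues.

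The isoprenoid steps were split. Fdps, which makes farnesyl diphosphate, had the highest mean of the 28 genes in epidermis, though Pmvk was above it in epidermis replicate 1 (256 TPM). Fdps stood at 206, 327 and 347 TPM in epidermis, against 40.0, 101 and 46.6 TPM in dermis. Every epidermis library lay above every dermis library, and the difference was 2.30 ± 0.39 (SE, limma adjusted p = 0.0024). Idi1, the isomerase one step before it, was 4.23 times higher by mean TPM, with a difference of 2.05 (limma adjusted p = 0.0025). Ggps1 makes geranylgeranyl diphosphate, which is attached to small GTPases and does not lead to cholesterol. It stood at 16.5, 21.3 and 20.5 TPM in dermis and at 20.8, 15.99 and 17.4 TPM in epidermis. The groups overlapped, and the difference was -0.10 with a 95% interval from -0.58 to 0.38 (limma adjusted p = 0.69). Its sign turned with median-of-ratios scaling (0.35, adjusted p = 0.15) and with quantile normalization (0.30, adjusted p = 0.20), without passing the threshold in either.

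Of the 11 sterol enzymes 10 were higher in epidermis. Sqle, squalene epoxidase, the first oxygen-requiring step, had the largest positive difference of the 28 genes with a pseudocount of 1, and the largest ratio of mean TPM among the enzymes (6.74). It stood at 17.6, 55.3 and 9.09 TPM in dermis and at 162, 187 and 204 TPM in epidermis, a difference of 3.07 ± 0.57 (SE, limma adjusted p = 0.0035). The dermis libraries differed from each other more than the epidermis libraries did, and dermis replicate 2 was the highest of them. Without that library the difference was 3.75, and without replicate 3 it was 2.51. Fdft1, which makes squalene, stood at 9.16 ± 4.25 TPM in dermis against 38.6 ± 5.34 TPM in epidermis (SD, n = 3 each). Lss folds squalene epoxide into lanosterol, the first sterol, and stood at 3.24, 10.6 and 2.80 TPM in dermis and at 28.6, 39.3 and 26.6 TPM in epidermis. All epidermis libraries lay above all dermis libraries, with a difference of 2.49 ± 0.44 (SE, limma adjusted p = 0.0029).

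The demethylation and reduction steps that follow lanosterol were higher as well, with 1 exception. Cyp51 removes the first methyl group and had a difference of 1.92, and Tm7sf2, a sterol reductase that acts next, had 2.02. Msmo1, the methyl oxidase of the following steps, stood at 26.7, 54.5 and 18.9 TPM in dermis and at 161, 228 and 149.97 TPM in epidermis. Its difference of 2.51 ± 0.39 (SE, limma adjusted p = 0.0017) was close to that of Lss. Hsd17b7, a ketosteroid reductase that works with it, was at 9.52 ± 5.35 TPM in dermis against 51.2 ± 4.99 TPM in epidermis (SD, n = 3 each). Nsdhl, the dehydrogenase that acts between these 2 enzymes, did not pass. It stood at 4.22, 9.80 and 8.73 TPM in dermis and at 12.5, 11.1 and 13.4 TPM in epidermis, and it was the least abundant enzyme in epidermis. The libraries did not overlap, but the gap was small (0.70, 95% interval -0.02 to 1.42, limma adjusted p = 0.089). It passed after median-of-ratios scaling (1.12, adjusted p = 0.012) and quantile normalization (1.27, adjusted p = 0.0092), and fell to 0.38 without dermis replicate 1.

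The last steps turn these sterols into cholesterol. Dhcr7, 7-dehydrocholesterol reductase, uses up the sterol from which skin makes vitamin D in sunlight. It stood at 8.29, 17.7 and 7.74 TPM in dermis and at 62.7, 68.3 and 52.0 TPM in epidermis, a difference of 2.42 ± 0.32 (SE, limma adjusted p = 0.00082). Its lowest epidermis library was well above dermis replicate 2, and its adjusted p was the smallest of the 19 enzymes. Ebp, an isomerase that moves a double bond, and Sc5d, the desaturase that makes 7-dehydrocholesterol, had the smallest differences of the 17 enzymes called, at 1.46 and 1.43. Both were already at 57.6 ± 13.3 and 39.2 ± 11.8 TPM in dermis and reached 158 ± 22.6 and 104 ± 10.5 TPM in epidermis (SD, n = 3 each).

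**Figure D2:**
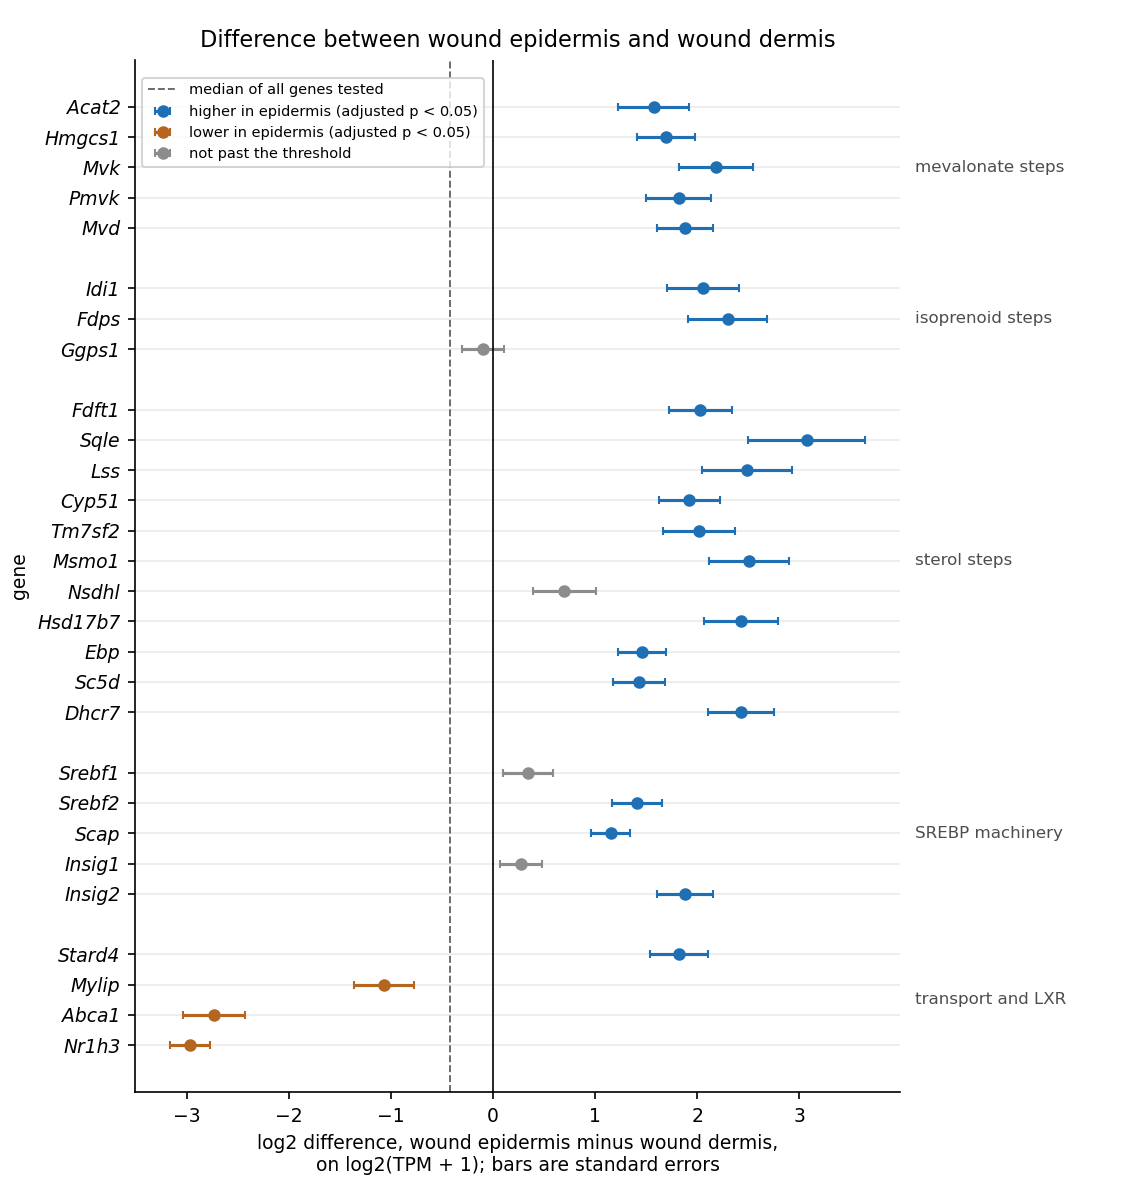
Difference between wound epidermis and wound dermis for each of the 28 genes on the log2(TPM + 1) scale, with standard errors from limma, ordered by role; the dashed line is the median of all 15982 genes at -0.42. Blue marks the 21 genes higher in epidermis, brown the 3 lower and grey the 4 not past the threshold, and the blue points run from 1.15 (Scap) to 3.07 (Sqle).

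The genes that control the pathway differed less evenly. Of 5 SREBP machinery genes 3 were higher in epidermis and 0 lower. Srebf2 codes for SREBP-2, the form tied most closely to cholesterol genes, and stood at 4.54, 8.19 and 5.60 TPM in dermis and at 15.9, 18.1 and 18.6 TPM in epidermis. Its groups did not overlap, with a difference of 1.41 ± 0.24 (SE, limma adjusted p = 0.0025). Srebf1, whose products lean towards fatty acid genes, stood at 9.11, 13.7 and 15.3 TPM in dermis and at 18.7, 14.8 and 15.0 TPM in epidermis. These groups overlapped (0.34, 95% interval -0.24 to 0.92, limma adjusted p = 0.27). Srebf1 passed the threshold after median-of-ratios scaling (0.78, adjusted p = 0.024) and quantile normalization (0.81, adjusted p = 0.024), and was at 0.14 without dermis replicate 1. The table gives 1 value per gene, so its 2 main transcripts, 1a and 1c, were not separated. Scap, the escort of SREBP, was at 10.8 ± 0.97 TPM in dermis against 25.2 ± 3.04 TPM in epidermis (SD, n = 3 each), a difference of 1.15 (limma adjusted p = 0.0022).

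The 2 INSIG genes, whose products retain SREBP, stood in different proportions in the 2 tissues. Insig2 stood at 29.9, 57.1 and 38.5 TPM in dermis and at 175, 151 and 131 TPM in epidermis, a difference of 1.88 ± 0.27 (SE, limma adjusted p = 0.0012). Insig1, itself a target of SREBP, was the most abundant of the 28 genes in dermis, at 105, 114 and 107 TPM, and stood at 121, 162 and 117 TPM in epidermis. Its libraries did not overlap, yet the gap between dermis replicate 2 and epidermis replicate 3 was narrow (0.27, 95% interval -0.20 to 0.75, limma adjusted p = 0.28). Insig1 passed after median-of-ratios scaling (0.75, adjusted p = 0.035) and not after quantile normalization (0.34, adjusted p = 0.21), and was at 0.13 without epidermis replicate 2. A ratio within a library does not depend on a scaling factor. The log2 ratio of Insig2 to Insig1 was -1.82, -1.0 and -1.48 in dermis and 0.53, -0.10 and 0.17 in epidermis. The log2 ratio of Srebf2 to Srebf1 was -1.0, -0.74 and -1.45 in dermis and -0.24, 0.29 and 0.31 in epidermis. Both ratios were higher in all 3 epidermis libraries than in any dermis library. The differences were 1.63 and 1.19. For each, the two-sided exact permutation p was 0.1, the smallest that 3 against 3 libraries allow, and it was also 0.1 when adjusted over the 2 ratios.

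**Figure D3:**
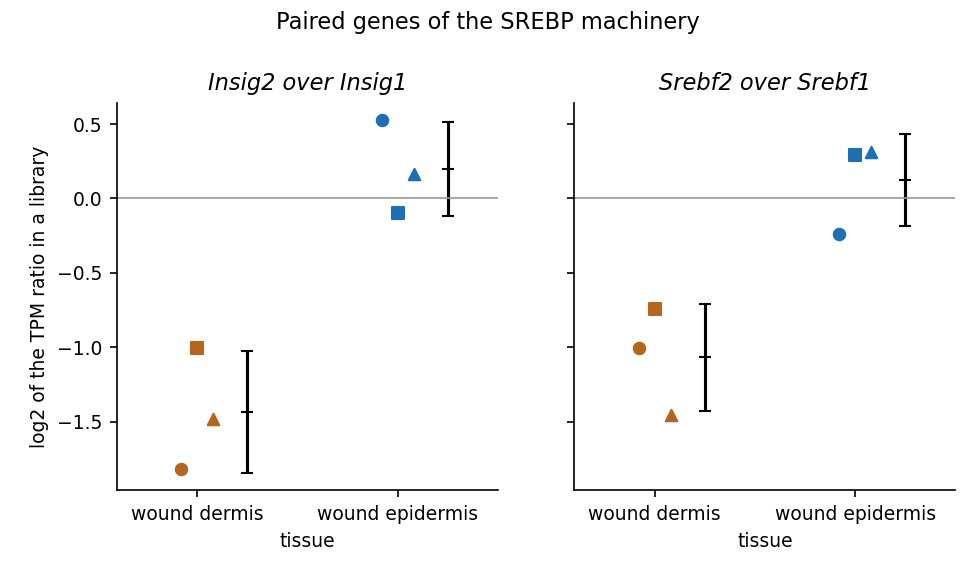
Log2 ratio of TPM within each library for Insig2 over Insig1 (left) and Srebf2 over Srebf1 (right) in wound dermis (brown) and wound epidermis (blue); each symbol is a library and the black bars are mean and SD (n = 3). Dermis means were -1.43 and -1.07 and epidermis means 0.20 and 0.12, with no overlap between tissues.

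Promoter windows are shown for Hmgcs1, which was higher in epidermis, and Insig1, which did not pass, as SREBP targets on either side of the threshold. The promoter table used here, from RefSeq, holds rat genes in build GRCr8, so these letters are rat sequence and not that of the mice measured. Each window is the 250 bases before the annotated start, and 24 of the 28 symbols had such a window. Motifs were searched on both strands, and capitals mark their letters or, for a match on the other strand, the reverse complement: CCAAT, the box bound by NF-Y, GGGCGG, the GC box, CACGTG, an E-box, and TCACNCCAC, a form of the sterol regulatory element. The rat Hmgcs1 window (chr2:53382054-53382303, plus strand) held 2 CCAAT and 4 GGGCGG matches, and the rat Insig1 window (chr4:8057770-8058019, minus strand) held 1 CCAAT, 1 GGGCGG and 1 CACGTG match.
Hmgcs1: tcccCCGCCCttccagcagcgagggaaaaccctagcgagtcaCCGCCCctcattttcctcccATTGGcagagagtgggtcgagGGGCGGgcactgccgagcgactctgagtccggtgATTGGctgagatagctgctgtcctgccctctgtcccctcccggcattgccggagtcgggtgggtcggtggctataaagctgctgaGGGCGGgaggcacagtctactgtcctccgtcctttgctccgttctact
Insig1: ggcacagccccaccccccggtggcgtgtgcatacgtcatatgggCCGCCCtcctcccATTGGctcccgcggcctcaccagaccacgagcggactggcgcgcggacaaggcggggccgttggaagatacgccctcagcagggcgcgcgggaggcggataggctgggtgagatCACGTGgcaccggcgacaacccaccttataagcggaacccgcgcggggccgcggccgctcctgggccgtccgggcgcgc
Over the 24 genes, CCAAT was found in 18 and GGGCGG in 19, against 34.0% and 30.5% of all 33469 windows of this length. A gene was counted if any of its windows held the motif, while the percentages are of single windows, so the 2 measures are not alike. CACGTG was found in 4 of the 24, against 5.59% of all windows, and TCACNCCAC in 0, against 0.97%. Matches describe the letters only. Both windows shown hold CCAAT and GC boxes.

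Among the 28 genes, those of cholesterol transport and LXR went the other way, with 1 exception. The other LXR gene, Nr1h2, is given with a related list below. Nr1h3, which encodes LXR-alpha, stood at 9.57, 8.52 and 7.03 TPM in dermis and at 0.18, 0.08 and 0.33 TPM in epidermis, the lowest level of the 28 genes there. The difference was -2.97 ± 0.20 (SE, limma adjusted p = 3.5e-05), and the ratio of mean TPM was 42.6. Abca1, the pump that loads cholesterol onto lipoproteins and a known LXR target, stood at 16.5, 7.95 and 11.0 TPM in dermis and at 1.34, 0.71 and 0.60 TPM in epidermis (-2.73 ± 0.30, SE, limma adjusted p = 0.00034). For both genes the tissues were far apart, and the pseudocount bears on these sizes because the epidermis levels lie near or below 1 TPM. With a pseudocount of 0.1 they were -4.91 and -3.61, and with a pseudocount of 5 they were -1.36 and -1.49. Mylip, a ubiquitin ligase that degrades lipoprotein receptors and another LXR target, stood at 23.9, 16.8 and 15.3 TPM in dermis and at 10.8, 5.45 and 9.25 TPM in epidermis. It was lower without overlap (-1.07 ± 0.30, SE, limma adjusted p = 0.018), but the call ended with median-of-ratios scaling (-0.63, adjusted p = 0.076), with quantile normalization (-0.59, adjusted p = 0.10) and without dermis replicate 1 (-0.88, adjusted p = 0.066). Stard4, a carrier of cholesterol between membranes and a known SREBP-2 target, was higher, from 8.31, 11.9 and 5.27 TPM in dermis to 31.3, 29.9 and 32.2 TPM in epidermis (1.82 ± 0.28, SE, limma adjusted p = 0.0017).

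All 8 markers of macrophages, cells in which Nr1h3 and Abca1 are well known, were lower in epidermis, against 39.3% of all genes. They summed to 2064, 1374 and 2573 TPM in dermis replicates 1, 2 and 3 and to 62.3 to 76.5 TPM in epidermis. In the same dermis libraries Nr1h3 stood at 9.57, 8.52 and 7.03 TPM and Abca1 at 16.5, 7.95 and 11.0 TPM. Mrc1 was listed at 0 in 2 epidermis libraries and at 0.04 TPM in the other. The 9 fibroblast markers summed to 45330 to 71120 TPM in dermis and 15.96 to 126 TPM in epidermis. The part of either cell type in the LXR genes was not tested. For the enzymes, the cell type of concern was the sebocyte, the lipid-making cell of the sebaceous gland. Of its 10 markers 4 passed the filter. Cidea, a lipid droplet protein, was higher in epidermis, at 11.8, 22.2 and 7.25 TPM against 0, 0.39 and 0.06 TPM in dermis (3.57, limma adjusted p = 0.0003). Awat2, a wax synthase, was higher by 0.59 (limma adjusted p = 0.018). Awat2 reached at most 1.18 TPM in epidermis and 0.52 TPM in dermis. It thus passed the filter through epidermis alone, near the floor. Mgst1 and Soat1 were lower, at -1.13 and -3.61. The other 6 did not pass the filter. They reached at most 0.72 TPM for Awat1, 0.41 TPM for Scd3, 0.08 TPM for Dgat2l6, 1.18 TPM for Fa2h, 2.34 TPM for Elovl3 and 2.52 TPM for Far2 in any library. The list summed to 214 to 306 TPM in dermis and 78.0 to 117 TPM in epidermis, most of it from Mgst1 and Soat1 in every library. Mgst1 stood at 115, 148 and 218 TPM in dermis and at 98.4, 46.5 and 74.6 TPM in epidermis. Soat1 stood at 100, 64.3 and 83.8 TPM in dermis and at 3.07, 6.59 and 8.98 TPM in epidermis. The direction of the sum is thus that of these 2 genes. Cidea went the other way, as did Awat2 near the floor. The part of sebocytes in the enzymes' levels was not tested. Of 9 immediate early and heat shock genes, which respond to the handling of tissue, 5 were higher in epidermis, against 17.0% of all genes tested. The 9 summed to 745 to 1457 TPM in dermis and 2309 to 3254 TPM in epidermis. The part of handling was not tested. Of the other cell types, 3 of 3 tested adipocyte markers and 2 of 3 neutrophil markers were higher in epidermis, against 17.0% of all genes. They were Fabp4 (102 to 528 TPM in epidermis, 40.3 to 58.0 TPM in dermis), Lipe and Retn, and S100a8 and S100a9. Retn stood at 0.74, 0.33 and 0.43 TPM in dermis and at 1.98, 1.24 and 1.28 TPM in epidermis. It thus passed the filter through epidermis alone, near the floor. The neutrophil marker Csf3r was lower, at 8.69, 5.49 and 11.5 TPM in dermis and 0.14, 0.05 and 0.03 TPM in epidermis. The adipocyte genes Adipoq, Plin1 and Adig did not pass the filter and reached at most 0.12, 0.52 and 2.15 TPM in any library. Nor did the neutrophil gene Mpo, which reached at most 2.15 TPM. The adipocyte genes Lep and Cidec and the neutrophil genes Ly6g and Elane were listed at 0 in every library. The part of these cells was not tested. Lower in epidermis were 6 of 6 pericyte markers, 4 of 6 of Langerhans and dendritic cells (1 was higher), 2 of 5 of T cells, 1 of 3 of neutrophils, 1 of 2 of Schwann cells and 1 of 1 of skeletal muscle. Over all genes tested 39.3% were lower. The counts for T cells and neutrophils lay near that share, and those for Schwann cells and skeletal muscle rest on 2 and 1 genes. The 1 melanocyte and 2 hair shaft markers tested did not pass.

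Dermis replicate 2, the dermis library with most keratinocyte marker RNA, also held most pathway RNA. Of the 21 genes higher in epidermis, 20 were highest in dermis replicate 2, as were 83.1% of all genes called higher and 35.5% of all genes tested. In dermis replicates 1, 2 and 3 these 21 genes stood at a median of 20.3%, 36.6% and 16.3% of their epidermis mean. The differentiation markers stood at 1.35%, 23.6% and 0.66%, and the basal keratinocyte markers at 15.6%, 42.2% and 3.51%. In replicate 3 the pathway genes were thus present at a much larger share of their epidermis level than the differentiation markers, from 4.93% for Sqle to 45.2% for Scap. The 21 genes were picked by their difference, so these shares are a description, and the part of keratinocyte RNA in the dermis levels was not tested.

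**Figure D4:**
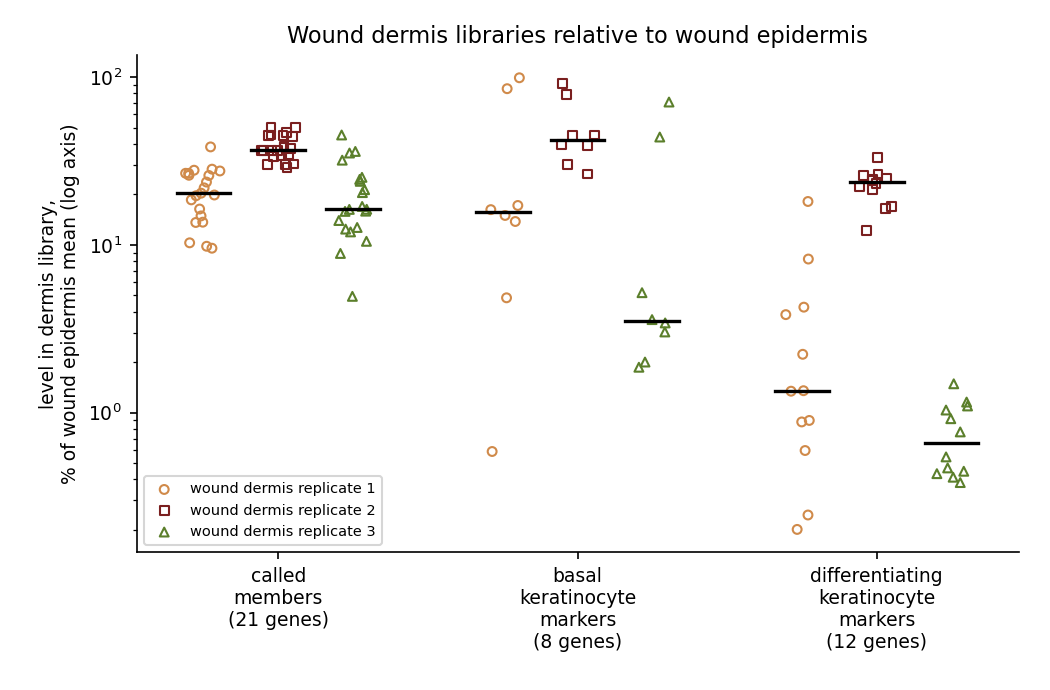
Level of each gene in a wound dermis library as a percentage of its mean in wound epidermis (log axis), for the 21 pathway genes higher in epidermis, 8 basal and 12 differentiating keratinocyte markers; symbols mark the 3 dermis libraries and black lines the medians. The pathway medians were 20.3%, 36.6% and 16.3%, and those of the differentiation markers 1.35%, 23.6% and 0.66%.

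The related lists are read against all genes tested, of which 17.0% were higher and 39.3% lower with a median of -0.42. Of 16 other enzymes of the isoprenoid and sterol branches 4 were higher and 6 lower, near those shares, with a median of -0.15. Sult2b1, which makes cholesterol sulfate in the outer epidermis, stood at 7.28, 39.3 and 1.06 TPM in dermis and 138, 217 and 121 TPM in epidermis (4.13, limma adjusted p = 0.0089). Fntb, a subunit of protein farnesyltransferase, was higher by 1.63 (limma adjusted p = 0.0005). Cyb5r3, a reductase that passes electrons to sterol and fatty acid desaturases, was at 289 ± 41.0 TPM in dermis against 65.3 ± 41.7 TPM in epidermis (SD, n = 3 each), and Nus1, part of the enzyme that makes dolichol, was lower (difference -1.28, limma adjusted p = 0.0039). After median-of-ratios scaling 6 genes of this list were higher and 2 lower, and its median turned to 0.30, as it did after quantile normalization (0.31) and with a filter of 5 TPM (0.04). Without dermis replicate 1, and likewise without replicate 3, 2 were higher.

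Of 16 genes of fatty acid synthesis and desaturation, which SREBP-1 is known to drive, 6 were higher and 5 lower, against 17.0% and 39.3% of all genes, with a median of 0.26. Pnpla3, a lipid droplet protein, stood at 0.89, 13.7 and 0.99 TPM in dermis and at 55.1, 47.7 and 40.7 TPM in epidermis (3.67, limma adjusted p = 0.0053). Dermis replicate 2 again stood apart from the other dermis libraries. The elongase Elovl6 was higher by 1.65 (limma adjusted p = 0.0077). Fads1, a desaturase of polyunsaturated fatty acids, was below 1 TPM in all epidermis libraries, at 0.76 ± 0.13 TPM against 10.9 ± 4.02 TPM in dermis (SD, n = 3 each; difference -2.71, limma adjusted p = 0.00021), and the elongase Elovl5 had a difference of -1.41. With median-of-ratios scaling 8 genes of this list were higher and 5 lower (median 0.68), and with quantile normalization 8 were higher and 3 lower (median 0.78). With a filter of 5 TPM 6 of the 11 left were higher and 2 lower (median 1.15).

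Of 14 genes of SREBP cleavage and sterol-dependent degradation 2 were higher and 3 lower, against 17.0% and 39.3% of all genes, with a median of 0.15. Mbtps1, the site-1 protease that makes the first cut in SREBP, stood at 23.4, 27.6 and 36.9 TPM in dermis and at 10.3, 7.12 and 11.3 TPM in epidermis. It was lower in epidermis (-1.52 ± 0.26, SE, limma adjusted p = 0.0024), while the SREBP-2 and SCAP genes were higher. Erlin1, a membrane protein of the endoplasmic reticulum that binds cholesterol, was higher by 1.16. Faf2, which acts in the degradation of proteins of the endoplasmic reticulum, was at 0.62 (limma adjusted p = 0.029) and missed the threshold in several alternatives, among them without dermis replicate 1 (adjusted p = 0.087). This list depended on scaling: 8 genes were higher and 1 lower with median-of-ratios scaling, and 6 higher and 2 lower with quantile normalization, where the medians were 0.57 and 0.51. Leaving out dermis replicate 1 or epidermis replicate 1 left 1 higher and 1 lower, and 1 was higher without dermis replicate 2 or epidermis replicate 3.

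Of 15 tested genes of cholesterol uptake, transport and storage 9 were lower in epidermis and 4 higher, against 39.3% and 17.0% of all genes, with a median of -1.23. The median was -0.76 with median-of-ratios scaling, where 8 were lower, and -0.55 with no filter, where 8 of 18 were lower. Lipa, the lysosomal lipase that frees cholesterol from its esters, stood at 87.1, 62.1 and 65.4 TPM in dermis and at 2.32, 1.87 and 3.60 TPM in epidermis (-4.35 ± 0.25, SE, limma adjusted p = 2.1e-05). Scarb1, the receptor that takes cholesterol from high-density lipoprotein, was at 36.3 ± 5.31 TPM in dermis against 1.5 ± 0.63 TPM in epidermis (SD, n = 3 each). Both tissues were far apart for each gene. Gramd1c, which carries cholesterol from the plasma membrane, was higher, at 1.52, 12.4 and 1.22 TPM in dermis and 44.9, 28.4 and 26.4 TPM in epidermis (2.98, limma adjusted p = 0.0079). Stard5, another sterol carrier, was at 1.06 and missed the threshold in several alternatives, among them without dermis replicate 1 (adjusted p = 0.07).

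Of 13 LXR partners, LXR targets and oxysterol enzymes 3 were higher and 6 lower, near the 17.0% and 39.3% of all genes, with a median of -0.26, which was 0.20 with median-of-ratios scaling and 0.02 with quantile normalization. The LXR targets Pltp and Arl4c were lower, at -2.88 and -2.73 (limma adjusted p = 0.00036 and 0.00018). Smpdl3a, also described as an LXR target, was higher, at 8.34, 58.3 and 12.1 TPM in dermis and 193, 164 and 150 TPM in epidermis (3.13, limma adjusted p = 0.0052). The targets thus did not share a direction. Rxra, the partner with which LXR binds DNA, was higher by 1.04 (limma adjusted p = 0.0058). Nr1h2, the other LXR gene, stood at 55.5, 69.3 and 65.5 TPM in dermis and at 62.6, 46.5 and 72.35 TPM in epidermis. These groups overlapped (-0.08, limma adjusted p = 0.77), and its level was above that of Nr1h3 in every library.

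**Figure D5:**
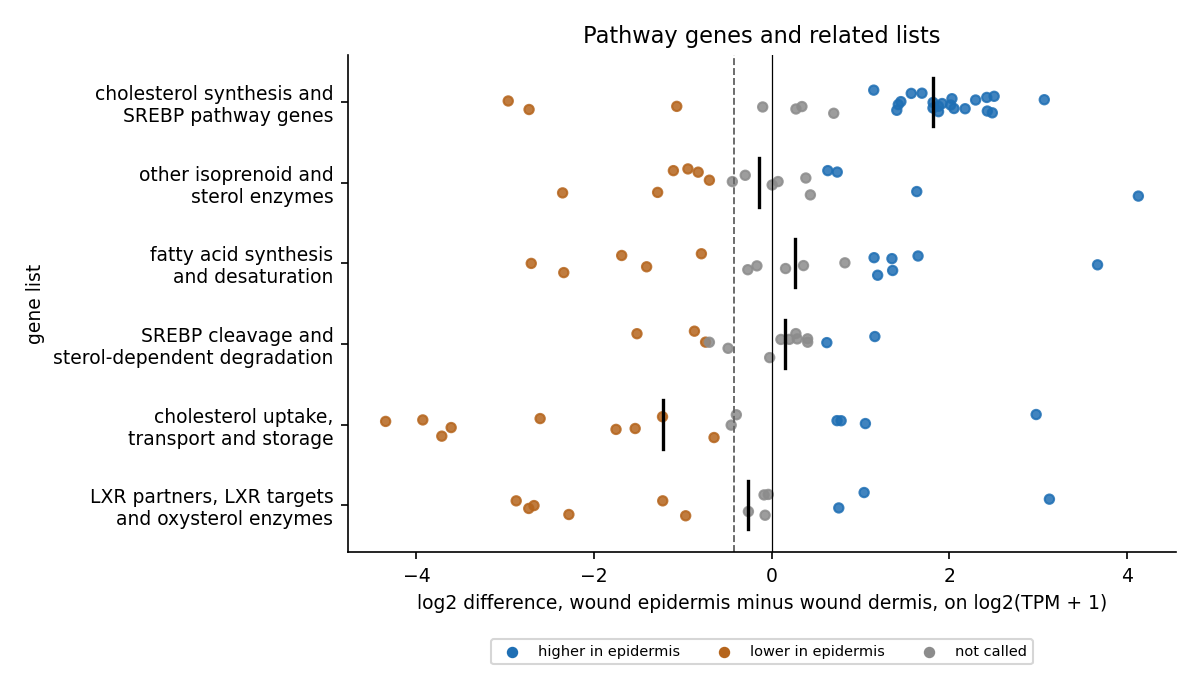
Difference between wound epidermis and wound dermis on the log2(TPM + 1) scale for the 28 pathway genes and 5 related lists; each point is a gene coloured by its call, black bars are list medians and the dashed line is the median of all genes at -0.42. The pathway genes have a median of 1.82, and the related lists have medians from -1.23 (uptake, transport and storage) to 0.26 (fatty acid synthesis).

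Some members share sequence or exons with other genes, which bears on how reads were assigned. By the GENCODE annotation of mm10, Acat2 (chromosome 17, 12942890 to 12960747) shares 40.6% of its 43-base transcript windows with its near copy Acat3, which was listed at no more than 0.51 TPM in any library. Fdft1 (chromosome 14, 63145150 to 63179578) overlaps Ctsb on the opposite strand over 18.3% of its exonic bases. Ctsb stood at 524 to 630 TPM in dermis and 64.7 to 156 TPM in epidermis, so the 2 genes differed in opposite directions. SMART-seq2 does not keep the strand, so reads from the overlap cannot be told apart. Tm7sf2 (chromosome 19, 6062821 to 6068373) shares 12.1% of its exonic bases with Vps51 on the same strand, and Vps51 was also higher in epidermis (0.85, limma adjusted p = 0.034). Fdps (chromosome 3, 89093588 to 89101959) shares 27.0% and Idi1 (chromosome 13, 8885501 to 8892451) 25.9% of such windows with other transcripts. For Fdps most were shared with Gm43738 (23.9%), which was listed at 0 TPM in every library. For Idi1 most were shared with Gm13502 (17.9%), at 2.02, 4.36 and 0 TPM in dermis and 0 TPM in epidermis. Hmgcs1 (chromosome 13, 119690379 to 119708260) shares 12.0%, mostly with an antisense gene. Sqle (chromosome 15, 59315077 to 59331192), Insig2 (chromosome 1, 121304353 to 121332589), Dhcr7 (chromosome 7, 143823145 to 143848410) and Nr1h3 (chromosome 2, 91184061 to 91202834) share at most 1.8%. All 28 are protein-coding genes.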

How the data were processed

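Gene expression was taken from the deposited table of 6 mouse libraries. TPM values were computed by the authors for each library. Bowtie 1.0.0, RSEM 1.2.31 and the build mm10 are named per the submitters' processing notes, and the sources used here give no annotation or options. Per the labels' protocols, RNA input and read length varied (86 or 43 bases), and no label ties either to a library, so no batch could be formed from them. All columns matched a sample. The depth is unknown, so no counting interval is given.

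Identifiers were paired with symbols for 49289 of 49548 genes. The test was limma 3.58.1 (mean-variance trend) in R 4.3.3 on log2(TPM + 1), for genes reaching 1 TPM in 3 or more libraries, with Benjamini-Hochberg adjustment and a threshold of 0.05. The fit was tested on simulated data. The 28 genes, the related lists and the marker lists were chosen with earlier results of these data known, so lists are given by counts and medians beside those of all genes, with no test of the list. All 28 genes are reported. From each related list the called genes with the largest differences are named, at most 2 per direction, where the higher tissue averaged 5 TPM or more; 1 gene so picked is not reported here. Other markers checked were those of pericytes, neutrophils, T cells, Langerhans cells, adipocytes, melanocytes, hair shaft, Schwann cells and skeletal muscle. Alternatives changed the pseudocount, the filter, the scaling, the trend and the pairing, or left out each library with the tested genes held fixed. The annotation used for positions was GENCODE vM21. Ratios were tested with scipy 1.17.1.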

Additional observations from a re-analysis of the deposited data

How the results depend on the processing

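Each of the 28 genes was recomputed under 15 alternatives. In 410 of 420 cases the direction and the side of the threshold stayed as reported, and 23 of the 24 genes called kept their call and direction in all 15; Mylip was the exception, with 3 calls lost. Of the others, 5 calls were gained (Nsdhl and Srebf1 under both scalings, Insig1 under median-of-ratios) and Ggps1 changed sign under median-of-ratios scaling (0.35) and quantile normalization (0.298). The median over the 28 genes was 2.27 after median-of-ratios scaling, against 1.82, and the median of all genes moved with it. With each library left out in turn, 7415 to 8714 genes were called against 8996, 21 pathway genes were higher in each case, 2 or 3 were lower, and the median was 1.58 to 2.08. The labels number the libraries alike in both tissues. Across genes, the departures of same-numbered libraries from the mean of their tissue correlated at -0.14, 0.09 and 0.19, so the numbers were not taken as pairs. With the replicate block 8404 genes were called, 21 pathway genes were higher and 3 lower, with a median of 1.82; of the SREBP cleavage list 1 was higher and 2 lower. Dermis replicate 1 correlated best with epidermis replicate 2 (0.12), not with its own number, while dermis replicates 2 and 3 correlated best with their own numbers. Of the 20 related genes that the rule picked, 286 of 300 cases kept their call, and the calls lost include those of Faf2 and Stard5. TPM keeps no depth, so precision is limited by the 3 libraries per tissue.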
